A study of Homo sapiens with 20 samples.

Results

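The comparison set MDA-MB-231 cells held with nanoparticles and given no laser light against untreated cells of the same line, and took 8 of the 20 samples of the series: 4 with nanoparticles alone and 4 untreated. MDA-MB-231 is an established human breast cancer line. The members were the samples whose titles give no laser, a choice by label that was made with earlier results of these data known. Cells of all groups were seeded at 30000 per well and grown for 24 h at 37 °C, and the RNA of 2 wells was pooled for each sample. The nanoparticle group then spent 4 h in 200 µl of medium with biomimetic nanoparticles at 0.1 mg/ml. What the particles are made of is not given in the sources used here. Cells of the untreated group had neither particles nor laser light. No source used here states whether their medium was also replaced, so the particles and a change of medium cannot be told apart. The other 12 samples had nanoparticles and laser light (808 nm, 10 min) and entered the filter on low counts, and so the set of genes tested, and the estimates of the spread and of the replicate pair term. Nothing in the labels states that the replicates were grown as separate cultures. The p-values therefore reflect only how much these samples varied, and that variation may be technical.

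Nanoparticles for photothermal therapy absorb near-infrared light and release it as heat. Cells generally take such particles up by endocytosis and carry them to lysosomes. Particles are known to act on cells through reactive oxygen, which the factor NRF2 answers, through metal ions, which metallothionein and ferritin genes answer, through damaged membranes, or through unfolded protein, which the heat shock and endoplasmic reticulum chaperone genes answer.

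Each value below is an mRNA level in CPM, counts scaled to a common library size, adjusted by the TMM method for differences in library composition, and given in the order of replicates 1 to 4. Library totals were 2709082 to 4538998 counts with nanoparticles and 2428489 to 4952111 counts untreated, and between 12623 and 13722 genes had a count. Totals did not separate the groups (exact permutation test over 70 splits, 2-sided, p = 0.514, where 0.0286 is the smallest p possible). Across genes, the log2 CPM of replicates had correlations of 0.891 to 0.927, and those of libraries from different groups 0.89 to 0.934. Along the main axis of variation, which held 23.4% of the variance of these 8 samples, replicates 1 and 2 lay on one side and replicates 3 and 4 on the other in both groups. On the next axis, with 16% of the variance, the nanoparticle libraries lay at 1.55 to 28.3. Untreated replicate 1 lay among them at 3.85, and untreated replicates 2, 3 and 4 at -17.8, -16.9 and -13.7. The labels give no batch, and the replicate pair was a term of the model. Untreated replicate 4 had 8.792% of its counts on mitochondrially encoded mRNAs, against 11.07% to 12.51% in the other 7 libraries.

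Mesenchymal markers of the kind known for this line were high except SPARC, and some luminal markers were also present. VIM, an intermediate filament, averaged 1617 CPM with nanoparticles and 1522 CPM untreated, CD44, the hyaluronan receptor, 701 and 664 CPM, and AXL, a receptor tyrosine kinase, 580.3 and 495 CPM. SPARC, a matrix protein on the same list, stood at means of 0.377 and 3.87 CPM. A single untreated library, at 15.5 CPM, held all 40 of its untreated counts. ESR1, the oestrogen receptor, had 0 counts in all 8 libraries, while PGR and CDH1 had 0 counts with nanoparticles and 9 each in untreated cells. For each of PGR and CDH1 those 9 counts came from a single library, at 3.48 and 3.01 CPM. The other luminal markers had counts in both groups. With nanoparticles and untreated, KRT18 averaged 267 and 246 CPM, KRT8 117 and 105 CPM, GATA3 13.2 and 19.9 CPM, ERBB2 8.59 and 7.98 CPM, and EPCAM 5.15 and 8.16 CPM. The 5 red cell and 6 lymphocyte markers had no count in any of the 8 libraries, nor had 4 of 5 platelet and 4 of 6 fibroblast markers, whose sums reached at most 3.74 and 6.82 CPM. Of the macrophage markers LYZ, TYROBP and AIF1 were at 0, and the 7 summed to 10.1 to 13.3 CPM with nanoparticles and 8.90 to 26.1 CPM untreated. In bulk RNA, fewer cells of a type and less RNA per cell cannot be told apart.

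No mRNA passed the test between nanoparticles alone and untreated cells. Of 12149 genes tested, edgeR called 0 higher and 0 lower at an adjusted p under 0.05 (0% in each direction), and the smallest adjusted p was 0.62. At an unadjusted p under 0.05 there were 637 genes (5.24%), 301 higher (2.48%) and 336 lower (2.77%). DESeq2 called 0 with 740 at that level, and limma-voom called MTRNR2L8 alone with 660. Over all genes the median log2 fold change was -0.003, the lowest decile -0.57 and the highest 0.52. For 332 genes (2.73% of those tested) all libraries of one group lay beyond those of the other.

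How large a change the samples could have hidden depended on the level of the mRNA. The 95% interval of the log2 fold change lay inside a 2-fold change in either direction for 6670 of the 12149 genes (54.9%). It did so for 97.37% of the 3189 genes with a mean of 30 to 100 CPM and for 98.52% of the 135 genes at 1000 CPM or more, where the median half-width was 0.166 on the log2 scale. Among the 3230 genes at 10 to 30 CPM the share was 55.91%, among the 2467 at 3 to 10 CPM it was 1.5%, and below that it was 0. A change of at least 2-fold was fitted for 945 genes (7.78%), but for only 41 of the 8152 genes with a mean of at least 10 CPM (0.503%). PXMP2, at a mean of 27.4 CPM, had the highest level of these 41.

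**Figure D1:**
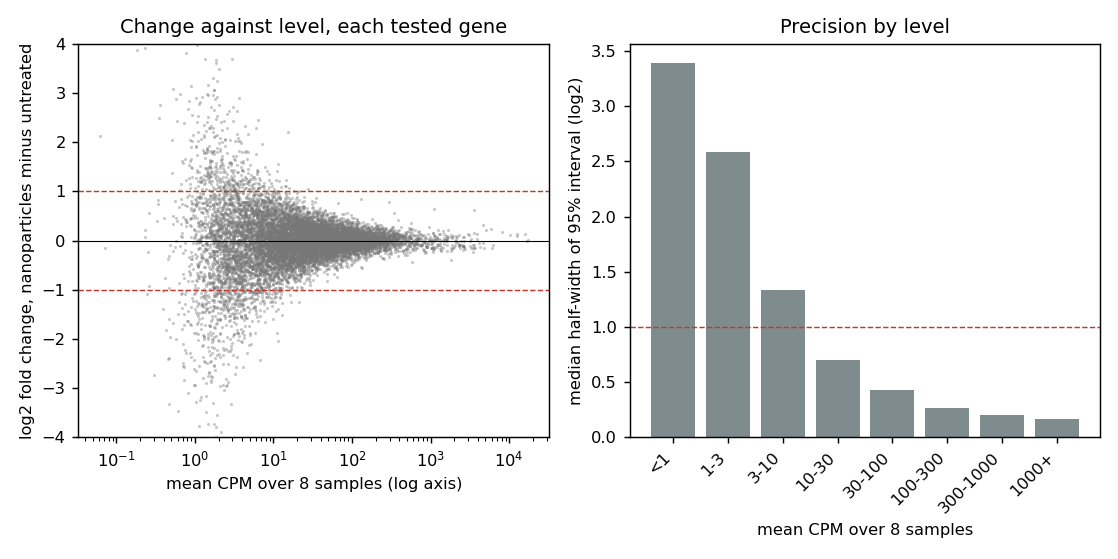
Left, the log2 fold change of each tested gene (nanoparticles minus untreated) against its mean CPM over the 8 samples on a log axis, with dashed lines at 2-fold and 40 of 12149 genes outside the axis. Right, the median half-width of the 95% interval by level, which is 3.39 below 1 CPM and 0.166 at 1000 CPM or more.

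The genes with the smallest p among those with a mean of at least 10 CPM, no overlap between the groups and one direction in both replicate pairs numbered 220 of 8152 (2.7%) before ranking, and the first 8 higher and 7 of the first 8 lower are named. Their separation is part of that choice. None passed the test: their edgeR adjusted p ran from 0.826 to 0.896.

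PXMP2, a channel protein of the peroxisome membrane (chromosome 12, 132687606 to 132704991, GRCh38), had 37.1, 37.2, 34.3 and 39.3 CPM with nanoparticles, against 14.1, 18.1, 24.8 and 14.7 CPM in untreated cells. The nanoparticle libraries were close to one another and the highest untreated library, replicate 3, lay below them all. Its log2 fold change was 1.05 ± 0.28 (SE, n = 4 per group; 95% interval 0.50 to 1.61; edgeR adjusted p = 0.826). DPM2, a regulatory subunit of dolichol-phosphate mannose synthase (chromosome 9, 127935099 to 127938484), had 35.8, 36.7, 60.8 and 45.4 CPM with nanoparticles, against 23.0, 24.6, 20.1 and 28.6 CPM untreated, a difference of 0.86 ± 0.24. NUP188, a scaffold protein of the nuclear pore, had 110.1, 115, 101 and 133 CPM with nanoparticles, against 81.9, 80.3, 86.7 and 69.7 CPM untreated, a difference of 0.53 ± 0.16. Nanoparticle replicate 3 was the highest library of the 4 for DPM2 and the lowest for NUP188.

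The other 5 mRNAs named as higher had the same separation at other levels. GEMIN7, of the SMN complex that assembles spliceosomal ribonucleoproteins, differed by 1.55 ± 0.44 on the log2 scale, with 11.5 to 23.1 CPM against 2.71 to 9.51 CPM untreated. EEF2KMT, which methylates an elongation factor, differed by 1.22 ± 0.39 and ZNF622, a zinc finger protein, by 1.01 ± 0.30. RBM42, an RNA-binding protein, differed by 0.78 ± 0.25 and MRFAP1L1 by 0.47 ± 0.15. The smallest of these 8 differences thus came with the highest level, that of MRFAP1L1 with means of 122 CPM with nanoparticles and 88.6 CPM untreated.

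Among the mRNAs that were lower, CD59, which shields cells from the membrane attack complex of complement (chromosome 11, 33703010 to 33736491), had 231, 204, 229 and 215 CPM with nanoparticles, against 273, 261, 250.3 and 359 CPM untreated, and a log2 fold change of -0.38 ± 0.12. GNL3, a nucleolar GTPase, had 199, 218, 212 and 216 CPM with nanoparticles, against 229.7, 266, 267 and 324 CPM untreated, and -0.36 ± 0.11. Untreated replicate 4 was the highest library for both CD59 and GNL3.

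HINT3, a nucleotide hydrolase, had the most negative log2 fold change of these 7, -1.88 ± 0.52, on levels of 0.715 to 10.3 CPM with nanoparticles and 11.4 to 23.6 CPM untreated. CPA4, a carboxypeptidase, had -1.24 ± 0.36, and untreated replicate 4 was its highest library at 56.5 CPM. MBNL2, a splicing regulator, had -0.96 ± 0.29, PAQR5, a membrane progesterone receptor, -0.91 ± 0.25, and LMAN2, a lectin of early secretion, -0.50 ± 0.16.

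**Figure D2:**
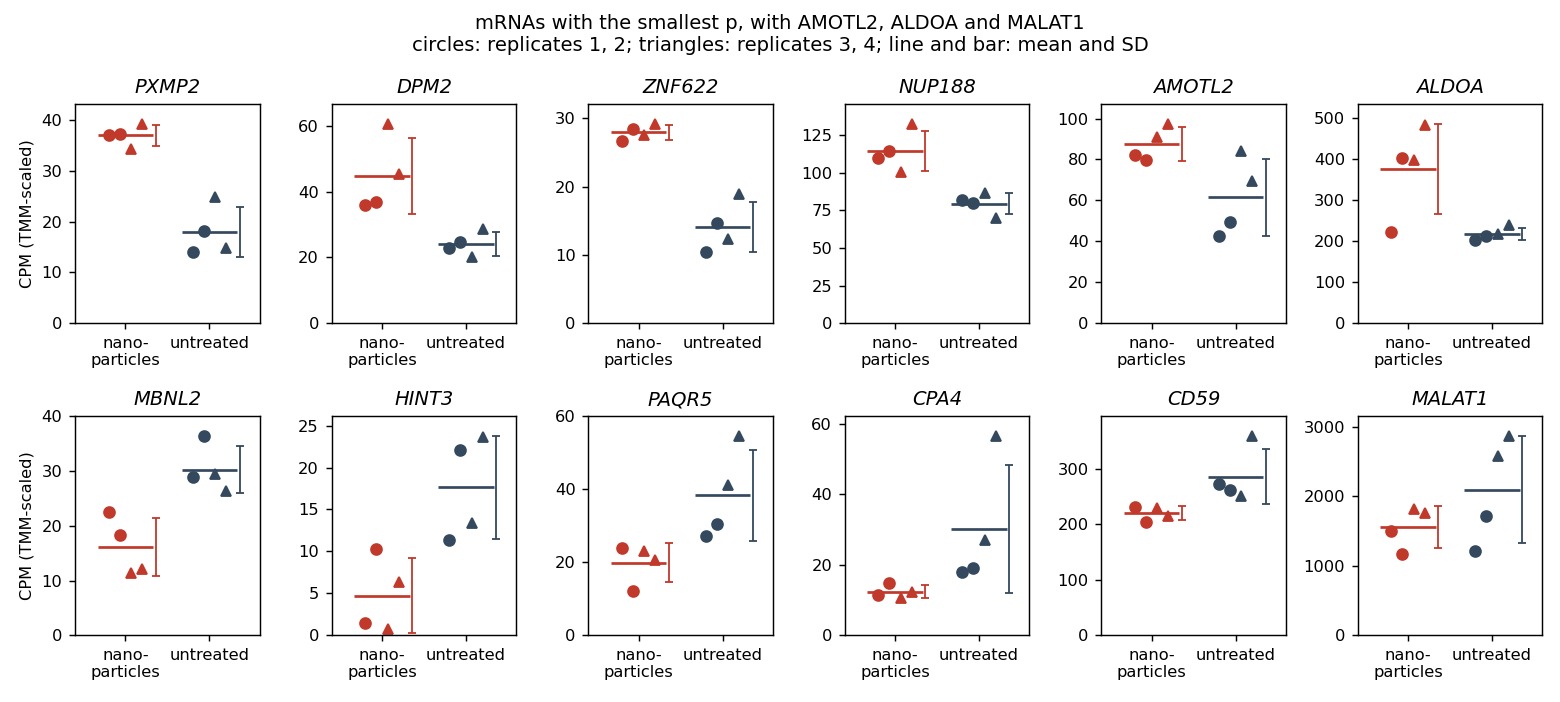
TMM-scaled CPM of 12 mRNAs in the 4 samples with nanoparticles and the 4 untreated samples, with circles for replicates 1 and 2, triangles for replicates 3 and 4, and mean and SD beside them. PXMP2 sits between 34.3 and 39.3 CPM with nanoparticles and between 14.1 and 24.8 CPM untreated, while ALDOA and MALAT1 overlap between the groups.

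No heat shock chaperone mRNA passed the test. Of 22 measured cytosolic chaperone genes 0 were called, 1 was higher and 0 lower at an unadjusted p under 0.05 (2.48% and 2.77% over all genes), and 9 were above 0 (49.7% over all genes). Their median log2 fold change was -0.05. For 19 of the 22 the interval lay within 2-fold. DNAJB1, an HSP40 co-chaperone of HSP70 (chromosome 19, 14514770 to 14529770), had 142, 138, 119.8 and 135 CPM with nanoparticles, against 118, 157, 154 and 128 CPM untreated. The groups overlapped, and the difference was -0.05 ± 0.12 (95% interval -0.29 to 0.19; edgeR adjusted p = 1). HSP90AA1, the inducible HSP90, had -0.04 ± 0.07 at means of 4536 ± 239 CPM with nanoparticles and 4682 ± 416 CPM untreated. HSPA6, an HSP70 gene with almost no basal expression, was at or below 2.41 CPM in each of the 8 libraries. The member higher at the unadjusted level was HSPB8, a small heat shock protein, with 18.2, 14.7, 10.4 and 16.2 CPM with nanoparticles, against 7.65, 9.03, 9.37 and 6.19 CPM untreated. Its difference was 0.88 ± 0.41 (edgeR adjusted p = 0.922).

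HSPA1A, the inducible HSP70 (chromosome 6, 31815464 to 31817946), had 38.2, 32.1, 21.8 and 22.4 CPM with nanoparticles, against 20.5, 17.1, 27.4 and 34.4 CPM untreated. The nanoparticle libraries were the higher ones in replicates 1 and 2 and the lower ones in replicates 3 and 4. Its log2 fold change was 0.27 ± 0.29 over both pairs, 0.89 within replicates 1 and 2 and -0.48 within replicates 3 and 4, and the difference between the pairs did not pass (edgeR adjusted p = 0.318). HSPA1B is a near-identical neighbour with which its reads can be exchanged, and it had -0.02 ± 0.16.

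Endoplasmic reticulum chaperone genes and the integrated stress response gave 0 calls among 19 and 18 members, with medians of 0.02 and 0.01. HSPA5, the chief chaperone of that compartment, had 0.05 ± 0.08, with an interval of -0.11 to 0.21. ATF4, the transcription factor of the integrated stress response, had -0.18 ± 0.13, and its proapoptotic target DDIT3 had 0.15 ± 0.43 on 7.86 to 22.3 CPM with nanoparticles and 5.36 to 19.6 CPM untreated. SLC7A5, a large neutral amino acid transporter, was the member higher at an unadjusted p under 0.05, with 0.34 ± 0.14. It differed by 0.07 within replicates 1 and 2 and by 0.69 within replicates 3 and 4.

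NRF2 targets and antioxidant genes were likewise without a call. Of 24 measured genes 8 were above 0 (49.7% over all genes), the median was -0.03, and 21 had an interval within 2-fold (54.9% over all genes). At an unadjusted p under 0.05, 1 was higher and 0 lower (2.48% and 2.77% over all genes). NQO1, a quinone reductase and a standard NRF2 target, had 208, 236, 223 and 204 CPM with nanoparticles, against 271, 191, 190.1 and 197 CPM untreated. Untreated replicate 1 lay above all other libraries, the groups overlapped, and the difference was 0.03 ± 0.12. HMOX1, which degrades heme, had 1.79, 0.656, 5.00 and 2.70 CPM with nanoparticles, against 6.20, 3.11, 8.37 and 0.774 CPM untreated. At these low levels its difference of -1.08 ± 0.63 had an interval of -2.34 to 0.17 (edgeR adjusted p = 0.978). TKT, the transketolase of the pentose phosphate pathway, had 152, 144, 133 and 191 CPM with nanoparticles, against 131, 113, 124 and 108 CPM untreated. It was the member higher at the unadjusted level, by 0.38 ± 0.14 (edgeR adjusted p = 0.896).

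Among metal-responsive mRNAs, MT2A, an abundant metallothionein (chromosome 16, 56608199 to 56609497), had 5708, 5561, 5041 and 5825 CPM with nanoparticles, against 3949, 5359, 4798 and 4953 CPM untreated. Nanoparticle replicate 3 overlapped the untreated range, and the difference of 0.22 ± 0.10 did not pass (edgeR adjusted p = 0.906). MT1E, a second abundant metallothionein, had 0.14 ± 0.10, with untreated replicate 4 the lowest library at 676 CPM, and MT1X had -0.08 ± 0.23. The 7 metallothionein and zinc genes had a median of 0.00, with MT2A the 1 member higher at an unadjusted p under 0.05 (2.48% over all genes). The 14 genes of iron handling had a median of 0.02, with 1 lower at that level (2.77% over all genes). FTH1 and FTL, the ferritin subunits, differed by -0.01 ± 0.07 and 0.03 ± 0.08, and TFRC, the transferrin receptor, by 0.03 ± 0.11. The interval of FTH1 ran from -0.15 to 0.14 and that of TFRC from -0.19 to 0.25.

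The uptake route was described through its coats, its GTPases and its destination. Of 31 endocytosis genes 0 were called, 2 were higher and 0 lower at an unadjusted p under 0.05 (2.48% and 2.77% over all genes), and 19 were above 0 (49.7% over all genes), with a median of 0.09 that was 0.00 within replicates 1 and 2 and 0.18 within replicates 3 and 4. CLTC, the clathrin heavy chain, had -0.09 ± 0.10 and RAC1, a GTPase of membrane ruffles, 0.16 ± 0.09. CAV1, the coat protein of caveolae, had 535, 484, 329 and 395 CPM with nanoparticles, against 627, 541, 378 and 446 CPM untreated. In both groups replicates 1 and 2 were above replicates 3 and 4, and the nanoparticle value was the lower one at each replicate number, which does not pair the cultures, with a difference of -0.19 ± 0.14.

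Lysosomal genes had a median of 0.04 over 28 members, with 1 higher and 1 lower at an unadjusted p under 0.05 (2.48% and 2.77% over all genes). LAMP1, a lysosomal membrane protein, had 0.12 ± 0.13 and CTSD, an aspartic protease, -0.00 ± 0.11 with an interval of -0.22 to 0.22. CTSL, a cysteine protease, had 43.8, 45.1, 50.8 and 49.4 CPM with nanoparticles, against 70.9, 57.3, 75.6 and 60.4 CPM untreated. The groups did not overlap, and the difference of -0.49 ± 0.19 did not pass (edgeR adjusted p = 0.906). The 18 autophagy genes had a median of -0.11 with 5 above 0 (49.7% over all genes). At the unadjusted level 0 were higher and 2 lower. The lower ones were ATG12 (-0.45 ± 0.20), of the conjugation system that builds autophagosomes, and OPTN (-0.25 ± 0.12), a cargo receptor. SQSTM1, the cargo receptor p62, had -0.03 ± 0.11. The 22 genes of membrane repair had a median of -0.03, and ANXA2, a membrane-binding annexin, had -0.13 ± 0.08.

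Cholesterol genes, which answer the sterol content of membranes, had a median of -0.08 over 22 members, with 0 at an unadjusted p under 0.05. INSIG1, which retains the sterol sensor in the endoplasmic reticulum, had 0.28 ± 0.23.

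**Figure D3:**
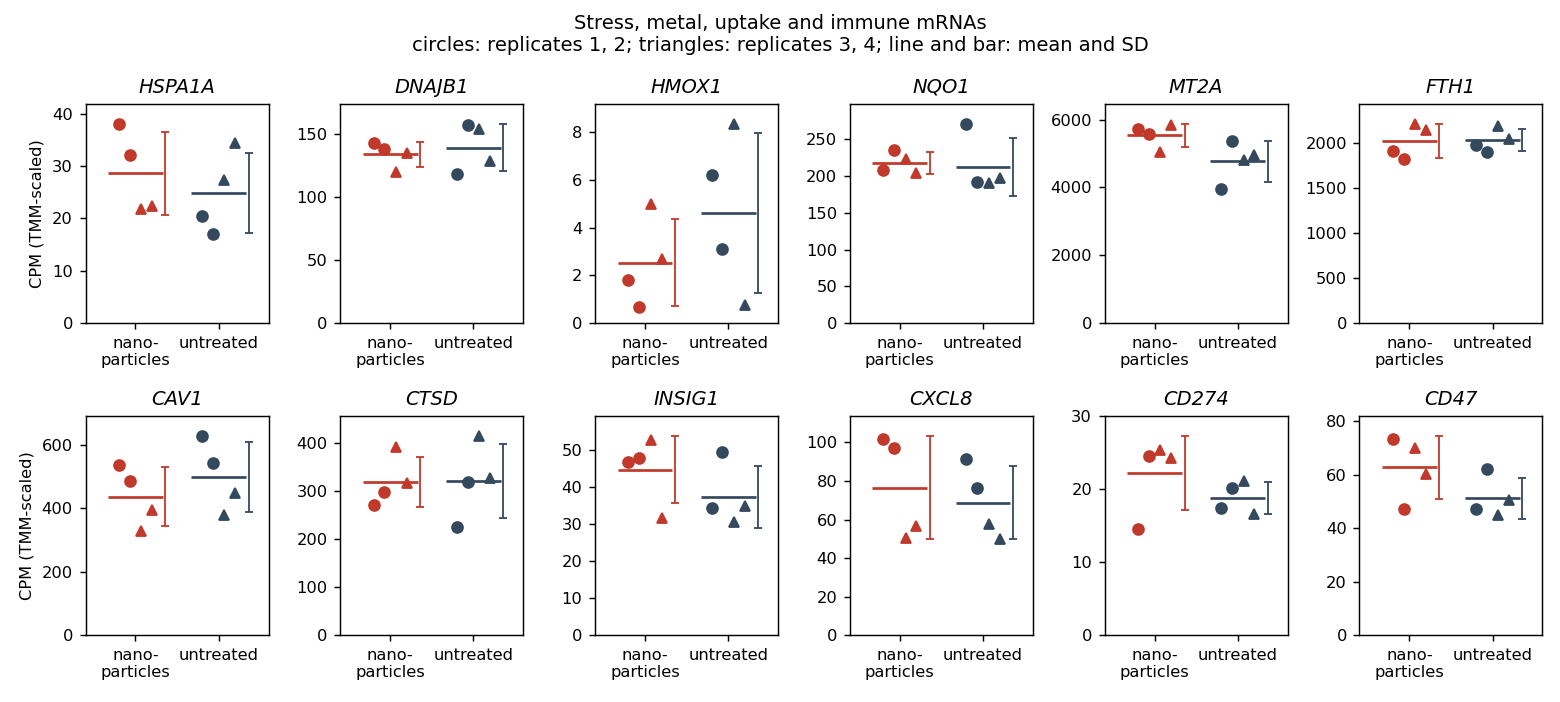
TMM-scaled CPM of 12 stress, metal, uptake and immune mRNAs, drawn as for the preceding genes with the nanoparticle group on the left of each panel. The groups overlap in each of the 12 panels, and HSPA1A shows nanoparticle replicates 1 and 2 at 38.2 and 32.1 CPM and replicates 3 and 4 at 21.8 and 22.4 CPM.

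The series title names immunotherapy, and the surface signals by which a tumour cell restrains immune cells were therefore listed. CD274, which encodes PD-L1 (chromosome 9, 5450503 to 5470566), had 14.6, 24.5, 25.4 and 24.3 CPM with nanoparticles, against 17.4, 20.2, 21.1 and 16.6 CPM untreated. Nanoparticle replicate 1 was the lowest of the 8 libraries and the other nanoparticle libraries the highest. The difference was 0.21 ± 0.32, and its interval of -0.43 to 0.86 left room for changes in either direction (edgeR adjusted p = 1). CD47, the signal that holds off phagocytes (chromosome 3, 108043094 to 108091862), had 73.2, 47.2, 70.1 and 60.2 CPM with nanoparticles, against 47.1, 61.9, 44.8 and 50.3 CPM untreated. The groups overlapped through nanoparticle replicate 2 and untreated replicate 2, and the difference was 0.29 ± 0.20. The 12 checkpoint ligands had a median of 0.09 with 0 at an unadjusted p under 0.05.

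Class I antigen presentation genes had a median of 0.00 over 17 members. Of the 17, 0 were called, and 2 were higher and 0 lower at an unadjusted p under 0.05 (2.48% and 2.77% over all genes). B2M, the class I light chain, had -0.07 ± 0.09. PSMB9, a subunit of the immunoproteasome that is also interferon-stimulated, was higher at the unadjusted level, by 0.45 ± 0.21. The summed level of the 25 listed interferon-stimulated genes was 1150 to 1198 CPM with nanoparticles and 1042 to 1144 CPM untreated. The groups did not overlap, by a narrow gap. Sums were formed for 37 lists and no other separated, so this list stands out only as 1 of 37, and its separation was not tested. The 23 listed interferon-stimulated genes that were tested had a median of 0.06. Of these, 0 were called and 3 were higher and 0 lower at an unadjusted p under 0.05 (2.48% and 2.77% over all genes). IFITM3, an abundant member that blocks virus entry, had 398, 395, 439 and 400.0 CPM with nanoparticles, against 341, 385, 342 and 355 CPM untreated, and a difference of 0.20 ± 0.10. It was the 1 tested member whose groups did not overlap (2.73% over all genes). MX1, an antiviral GTPase, had 1.08 ± 0.53.

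Of 20 NF-kB targets and cytokines 3 were higher and 1 lower at an unadjusted p under 0.05 (2.48% and 2.77% over all genes), and 0 were called. IL6, a proinflammatory cytokine, had 70.7, 82.9, 52.9 and 45.2 CPM with nanoparticles, against 85.2, 69.4, 31.5 and 23.2 CPM untreated. In both groups replicates 3 and 4 were below replicates 1 and 2, and the log2 fold change of 0.40 ± 0.19 was -0.01 within replicates 1 and 2 and 0.83 within replicates 3 and 4. NFKB2, a subunit of the factor, had 0.61 ± 0.23 without overlap (46.3 ± 3.18 CPM with nanoparticles and 30.5 ± 8.23 CPM untreated). CXCL8, the neutrophil chemokine, had 0.13 ± 0.15, CXCL1 -0.27 ± 0.23 and the inhibitor NFKBIA -0.25 ± 0.15. Immediate-early genes had a median of 0.07 over 25 members with 1 higher and 1 lower at the unadjusted level. JUN had 0.09 ± 0.16, EGR1 0.13 ± 0.45, and FOS, at up to 5.63 CPM, 0.09 ± 1.05.

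MAX, the partner of MYC, had -0.00 ± 0.15, with an interval of -0.31 to 0.31. The 9 genes of its network had a median of -0.13 with 2 above 0 (49.7% over all genes). Without overlap between the groups, 0 of the 9 were higher and 2 lower (2.73% in either direction over all genes). At an unadjusted p under 0.05, 1 of them was higher and 1 lower (2.48% and 2.77% over all genes). The 24 growth genes known to respond to MYC had a median of 0.04, with 1 higher and 1 lower at that level, against the same shares. The higher one was CAD, which starts pyrimidine synthesis, with 48.2 to 66.1 CPM with nanoparticles, against 31.5 to 45.7 CPM untreated, and a difference of 0.54 ± 0.21. GNL3 was the lower one. NPM1, a nucleolar chaperone, had -0.02 ± 0.08 and NCL, the nucleolar protein nucleolin, 0.07 ± 0.08.

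Cell cycle and death genes gave 0 calls. The 25 S phase genes had a median of 0.02, with 1 higher and 1 lower at an unadjusted p under 0.05 (2.48% and 2.77% over all genes). Without overlap between the groups, 0 of them were higher and 1 lower (2.73% in either direction over all genes). The 25 G2/M genes had a median of 0.01, with 0 higher and 1 lower at the unadjusted level. CDT1, which licenses replication origins, had 33.3, 26.2, 44.7 and 54.3 CPM with nanoparticles, against 22.5, 19.3, 21.1 and 26.3 CPM untreated. The lowest nanoparticle library, replicate 2, lay just below the highest untreated library, and the difference of 0.81 ± 0.25 did not pass (edgeR adjusted p = 0.87). TOP2A, the topoisomerase of dividing cells, had -0.15 ± 0.09. The 17 p53 targets had a median of -0.18 with 0 at an unadjusted p under 0.05, and CDKN1A, the cell cycle inhibitor p21, had -0.13 ± 0.17. The 24 BCL2 family and death effector genes had a median of -0.03, with 0 higher and 1 lower at the unadjusted level. Without overlap between the groups, 0 of these 24 were higher and 1 lower, beside the same 2.73% over all genes. The 31 proteasome subunits had a median of -0.01 with all 31 intervals within 2-fold, and 2 higher and 1 lower at the unadjusted level. PSMD3, of the regulatory particle, had 0.45 ± 0.13 with overlapping groups.

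ALDOA, the aldolase of glycolysis (chromosome 16, 30064164 to 30070457), had 223, 402, 398 and 483 CPM with nanoparticles, against 201, 213, 217 and 238 CPM untreated. Nanoparticle replicate 1 lay within the untreated range and the other nanoparticle libraries well above it. The difference of 0.79 ± 0.22 did not pass (95% interval 0.32 to 1.25; edgeR adjusted p = 0.896). It passed without nanoparticle replicate 1 (0.97; edgeR adjusted p = 0.00054), when only the 8 samples without laser were fitted (0.77; edgeR adjusted p = 0.0202) and without the filter on low counts (0.79; edgeR adjusted p = 0.000121). The 25 glycolysis and hypoxia genes had a median of 0.04, with 3 higher and 1 lower at an unadjusted p under 0.05 (2.48% and 2.77% over all genes). The others higher at that level were HK1 (0.37 ± 0.15), the first enzyme of glycolysis, and ANKRD37 (1.35 ± 0.68), and P4HA1, a collagen prolyl hydroxylase, was lower (-0.28 ± 0.14).

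Targets of YAP and SRF, transcriptional pathways that read the actin cytoskeleton, lay mostly above 0. Of 26 measured genes 0 were called, 9 were higher and 0 lower at an unadjusted p under 0.05 (2.48% and 2.77% over all genes), and 22 were above 0 (49.7% over all genes). The median was 0.16, and 0.16 and 0.08 within replicates 1 and 2 and within replicates 3 and 4. An earlier look at the same data had already shown that direction, so it is not independent evidence. AMOTL2, a YAP target that binds YAP in turn (chromosome 3, 134355874 to 134375479), had 81.9, 79.6, 91.2 and 97.5 CPM with nanoparticles, against 42.6, 49.5, 84.3 and 69.3 CPM untreated. Untreated replicate 3 overlapped the nanoparticle range. The difference was 0.54 ± 0.16 (95% interval 0.22 to 0.85; edgeR adjusted p = 0.826).

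ACTB, cytoplasmic beta-actin, had 1454, 1417, 1470.3 and 1741 CPM with nanoparticles, against 1363, 1332, 1344 and 1267 CPM untreated, without overlap, and a difference of 0.19 ± 0.08. ZYX, a focal adhesion protein, had 0.33 ± 0.12 with nanoparticle replicate 4 the highest library at 359 CPM. AXL had 0.26 ± 0.09, CCN1, a matricellular YAP target, 0.15 ± 0.09, and ACTG1, cytoplasmic gamma-actin, 0.03 ± 0.07. The actin genes are close copies with pseudogenes, as are the ribosomal protein genes, so how reads were divided among them is uncertain. For 24 of the 26 the interval lay within 2-fold. The summed level of the 27 listed genes was 12453 to 13885 CPM with nanoparticles and 10920 to 13153 CPM untreated, so the groups overlapped.

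Classes of RNA that shift with RNA quality or composition were set out in the same way. Of 12 measured replication-dependent histone genes, whose mRNAs mostly lack a poly(A) tail, 3 were above 0 (49.7% over all genes) and 2 were lower at an unadjusted p under 0.05 (2.77% over all genes), with a median of -0.52. Only 2 of the 12 intervals lay within 2-fold. HIST1H1E, a linker histone, had 25.9, 13.1, 22.5 and 8.84 CPM with nanoparticles, against 30.4, 44.8, 32.5 and 19.4 CPM untreated, and a difference of -0.86 ± 0.27 (edgeR adjusted p = 0.87). Nanoparticle replicates 1 and 3 and untreated replicate 4 overlapped. Of 9 measured long noncoding RNAs 1 was above 0 and 2 were lower at the unadjusted level, with a median of -0.14. MALAT1, the most abundant of them (chromosome 11, 65497688 to 65506516), had 1498, 1166, 1817 and 1766 CPM with nanoparticles, against 1211, 1712, 2588 and 2870.1 CPM untreated. Untreated replicates 3 and 4 were the highest libraries and untreated replicate 1 lay near the lowest. Its difference of -0.39 ± 0.14 did not pass (edgeR adjusted p = 0.906), but passed without untreated replicate 1 (-0.54; edgeR adjusted p = 0.000288). NEAT1, the scaffold of paraspeckles, had -0.38 ± 0.19. Whether RNA quality had a part in the differences of the other lists was not tested.

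Ribosomal protein mRNAs had a median of -0.09 over 77 genes, with 0 higher and 14 lower at an unadjusted p under 0.05 (2.48% and 2.77% over all genes). Of the 77, 19 were above 0 (24.7%, against 49.7% over all genes), and all 77 intervals lay within 2-fold. The groups did not overlap for 0 higher and 3 lower genes of the 77 (2.73% in either direction over all genes). The median of the 77 was -0.22 within replicates 1 and 2 and 0.04 within replicates 3 and 4. RPS29, of the small subunit, had 4589.7, 4488, 4058 and 4884 CPM with nanoparticles, against 6071, 5372, 4124 and 4459.8 CPM untreated, so that untreated replicates 1 and 2 alone stood high. Nuclear-encoded subunits of oxidative phosphorylation ran alike, with a median of -0.05 over 59 genes, and -0.17 and 0.07 within the pairs. Of the 59, 0 were higher and 2 lower without overlap, and 0 were higher and 5 lower at the unadjusted level. Among those 5, COX6C, of cytochrome oxidase, had -0.28 ± 0.10, with -0.28 and -0.29 within the pairs.

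Mitochondrially encoded mRNAs had a median of 0.13 over 13 genes, with 12 above 0 (49.7% over all genes). The median was -0.03 within replicates 1 and 2 and 0.35 within replicates 3 and 4, where untreated replicate 4 had the lowest share of such counts. MT-ND6, the subunit encoded on the other strand of the mitochondrial genome, had 234, 227, 95.8 and 105 CPM with nanoparticles, against 132, 141, 65.6 and 29.4 CPM untreated. Within each replicate pair both nanoparticle libraries were above both untreated ones, with log2 fold changes of 0.75 and 1.07, and the difference over all was 0.85 ± 0.38 (edgeR adjusted p = 0.928). Without a stated strand setting, its reads and those of the opposite strand cannot be told apart. The difference passed when only the 8 samples without laser were fitted (0.90; edgeR adjusted p = 0.0202). MTRNR2L8, a nuclear copy of mitochondrial ribosomal RNA sequence whose reads cannot be separated with certainty from their source, had 5819.8, 5047, 4136 and 2519 CPM with nanoparticles, against 2377, 2976, 3409 and 2360.3 CPM untreated. Its difference of 0.63 ± 0.19 did not pass (edgeR adjusted p = 0.896), but passed in limma-voom (0.65; adjusted p = 0.0316) and without nanoparticle replicate 4 (0.82; edgeR adjusted p = 0.0435).

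**Figure D4:**
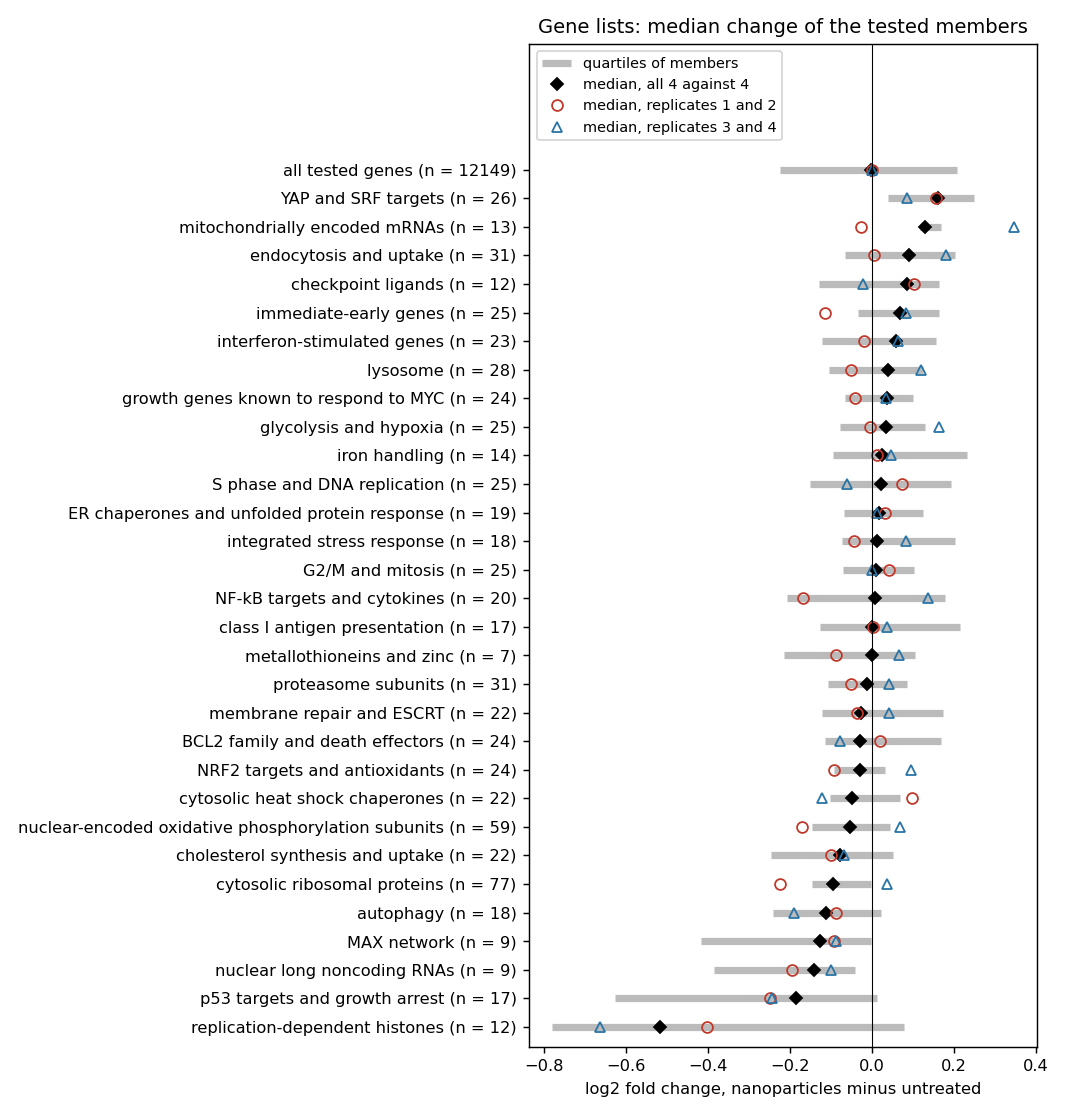
Median log2 fold change (nanoparticles minus untreated) of the tested members of 30 gene lists and of all 12149 tested genes, over all samples and within each replicate pair, with grey bars from the lower to the upper quartile of the members. YAP and SRF targets have the highest median at 0.16 and histones the lowest at -0.52, and the 2 pairs lie on opposite sides of 0 for ribosomal proteins.

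The values within the replicate pairs showed no relation to each other across genes. Across the 8152 genes with a mean of at least 10 CPM the log2 fold change within replicates 1 and 2 and that within replicates 3 and 4 correlated at a Pearson r of -0.0066 and a Spearman rho of -0.016, given as a description over genes measured in separate libraries. The SD of the values was 0.393 and 0.448. Of all tested genes 5974 (49.2%) had the same sign in both pairs. Among YAP and SRF targets 17 of 26 did.

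Within replicates 1 and 2 edgeR called 2 genes higher (0.0165% of those tested) and 0 lower, and 659 had an unadjusted p under 0.05 (5.42%). DESeq2 called 41 in the same comparison, 16 higher and 25 lower, while edgeR on the 8 samples without laser alone called 0, with a smallest adjusted p of 0.0522. KHSRP, an RNA-binding protein that promotes mRNA decay (chromosome 19, 6413348 to 6424794), had 1201 and 1105 CPM with nanoparticles, against 773 and 843 CPM untreated, in replicates 1 and 2. In replicates 3 and 4 it had 929 and 954 CPM with nanoparticles, against 985 and 837 CPM untreated. The log2 fold changes were 0.51 ± 0.11 (edgeR adjusted p = 0.0416) and 0.05 ± 0.11. TLN1, which links integrins to actin (chromosome 9, 35696948 to 35732395), had 225 and 242 CPM with nanoparticles, against 138 and 141 CPM untreated, in replicates 1 and 2, and 279.5 and 217 CPM, against 253 and 253 CPM, in replicates 3 and 4. Its log2 fold changes were 0.75 ± 0.15 (edgeR adjusted p = 0.0416) and -0.03 ± 0.15. The difference between the pairs was not called for either gene (edgeR adjusted p = 0.386 for KHSRP and 0.318 for TLN1). Within replicates 1 and 2 the count was 2 and 0 without nanoparticle replicates 1 and 2, and 1 and 3 without untreated replicates 1 and 2, and in none of these 4 fits was it KHSRP or TLN1 that was called.

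Within replicates 3 and 4 edgeR called 0 genes (0%). An unadjusted p under 0.05 was reached by 895 genes (7.37%), the smallest adjusted p was 0.136, and DESeq2 called 0 with 1020 at that level. The number called by edgeR became 3 and 2 without nanoparticle replicates 3 and 4, and 1, 1 and 10 without untreated replicates 1, 2 and 3. The test of the difference between the pairs called 0 genes (0%), with 889 at an unadjusted p under 0.05 (7.32%), while DESeq2 called 14. In edgeR it called 2, 7 and 2 without nanoparticle replicates 1, 3 and 4, and 1, 7, 4 and 4 without untreated replicates 1, 2, 3 and 4. With all libraries its smallest edgeR adjusted p, 0.0768, belonged to CLIC1 and EIF5A. CLIC1, a chloride channel protein, had 221, 188, 198 and 255 CPM with nanoparticles, against 287, 234, 131 and 142 CPM untreated, so that the untreated libraries were higher in replicates 1 and 2 and lower in replicates 3 and 4. EIF5A, a translation factor, ran the opposite way, with 409, 498, 424 and 422 CPM with nanoparticles, against 301, 332, 566 and 506 CPM untreated. For both mRNAs the untreated libraries held the wider split. TMEM258, a subunit of oligosaccharyltransferase, had 235, 256, 231 and 314 CPM with nanoparticles, against 324, 359, 189 and 186 CPM untreated (edgeR adjusted p = 0.085). CLIC1, EIF5A and TMEM258 were among the 12 genes called between the pairs without the filter on low counts.

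Replicates 3 and 4 differed from replicates 1 and 2 in 435 genes over the 8 samples (3.58%), 185 higher (1.52%) and 250 lower (2.06%). The pairs were chosen with earlier results of these data known. That count is therefore no independent scale for the 0 genes called between the groups. Scaled by library totals the split was 256 higher and 171 lower. The count was 284, 255 and 288 without nanoparticle replicates 1, 2 and 3 and 282 without untreated replicate 1. The labels do not say what set the pairs apart.

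**Figure D5:**
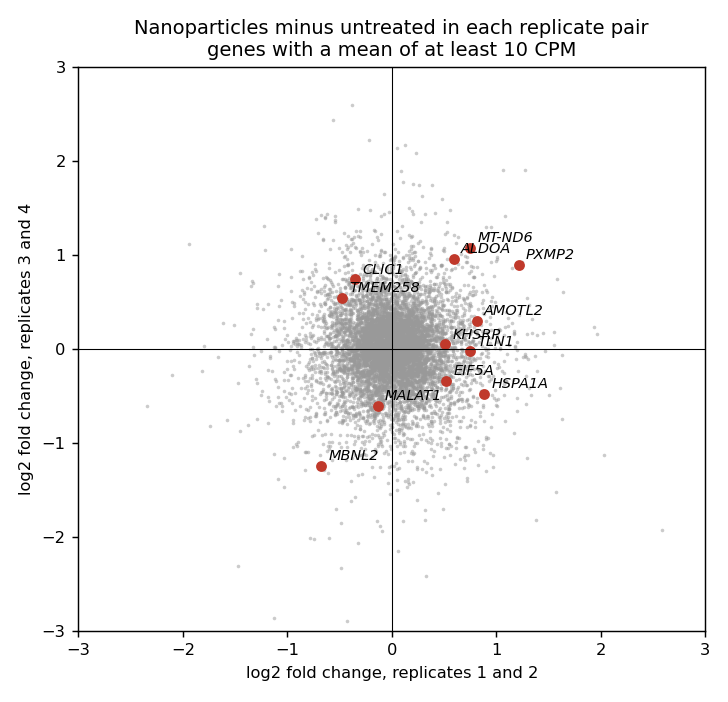
Log2 fold change (nanoparticles minus untreated) within replicates 1 and 2 on the horizontal axis and within replicates 3 and 4 on the vertical axis for the 8152 genes with a mean of at least 10 CPM, 4 of them outside the axes, with 12 genes named in red. The points show no slope, PXMP2 and MBNL2 lie on one side of 0 in both pairs, and HSPA1A, EIF5A, CLIC1 and TMEM258 lie on opposite sides of 0.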

How the data were processed

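Expected counts for every gene and all 20 samples were deposited. The submitters' processing notes name STAR, Salmon and GRCh38. They give no version, annotation, strand setting or use of molecular identifiers. Per the labels' protocols, the library kit was QuantSeq FWD, which reads the 3' ends of polyadenylated RNA, so CPM carry no length term. Between 1.74% and 2.24% of the values of the 8 libraries were not whole, and all were rounded. Gene positions came from GENCODE on GRCh38.

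edgeR 4.0.16 in R 4.3.3 (TMM; filter at a count of 10 and a total of 15) fitted 12149 of 36601 genes by robust quasi-likelihood over all 20 samples, with group and replicate pair as terms (14 residual degrees of freedom). Values within pairs and the test between pairs came from means of group by pair (10 residual degrees of freedom). Every adjusted p is by Benjamini-Hochberg over all tested genes. SE was the size of the log2 fold change over the square root of F, and intervals are at 95%. DESeq2 1.42.0 and limma 3.58.1 were alternatives, and the fits were tested on simulated data. Intervals cover the spread between samples, and depth bounds counting error only, since copied reads are not independent molecules.

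Named genes were up to 8 called genes in each direction with a mean of at least 10 CPM, filled with the smallest p among such genes without overlap and with 1 sign in both pairs, then the 3 most abundant members of each list, genes called within a pair, and a fixed set. MTRNR2L8, MT-ND6, EIF5A, CLIC1, TMEM258, HSPA6, HIST1H1E and list members named for an unadjusted p under 0.05 were picked with their values in view. The members, lists and the pair term were chosen with earlier results of these data known. Lists were described by counts and medians only. Some genes that this rule names are not reported here.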

Additional observations from a re-analysis of the deposited data

Results flagged for a closer look

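In 12 of 292 groups of 4 values examined (each named mRNA and list in each group), 1 library lay far from the other 3 relative to the range, where chance gives about 1 in 20. With nanoparticles these were DDIT3 at 22.3 CPM in replicate 2 (the others 7.86 to 8.71), CD274 at 14.6 CPM in replicate 1 (24.3 to 25.4), UQCRB, a subunit of respiratory complex III, at 816 CPM in replicate 1 (729 to 744), EIF5A at 498 CPM in replicate 2 (409 to 424), and IFITM3 at 439 CPM in replicate 3 (395 to 400.0). Nanoparticle replicate 4 stood apart in ACTB at 1741 CPM (1417 to 1470.3) and in MT-ND2, a subunit of respiratory complex I, at 13997 CPM (17349 to 18006).

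In untreated cells replicate 4 stood apart in MT1E at 676 CPM (the others 916 to 952), LAMP1 at 132 CPM (151 to 154) and the summed mesenchymal line markers at 3537 CPM (3380.1 to 3391). Untreated replicate 1 stood apart in NQO1 at 271 CPM (190.1 to 197) and untreated replicate 2 in the summed iron handling genes at 4362 CPM (4702 to 4759.6).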

How the results depend on the processing

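Between nanoparticles alone and untreated cells, 2 genes were called when only the 8 samples without laser were fitted, 1 without the low-count filter and 1 by limma-voom, and 0 to 1 when each library was left out; the other alternatives run called 0. Within replicates 1 and 2 the count was 0 in the 8 samples alone, 6 without the filter and 41 by DESeq2 (16 higher, 25 lower), and 0 to 3 with a library left out. Within replicates 3 and 4 it was 7 without the filter and 0 to 10 with a library left out. Between the pairs it was 1 with library totals, 12 without the filter and 14 by DESeq2, and 0 to 7 with a library left out. Genes that differed between replicates 3 and 4 and replicates 1 and 2 numbered 255 to 431 with a library left out. With 1 library left in a cell, it is assumed to vary like the others.

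Intervals within 2-fold numbered 6524 to 6747 over the alternatives and 6044 to 6243 with a library left out. Their share of the genes tested, 54.9% in the main fit, depended on the filter. It was 35.5% of 19022 genes without the filter and 82.6% of 8123 genes with at least 10 counts in every sample. In the 8 samples without laser alone it was 61.1% of 10720 genes. Of 114 named mRNAs up to 3 changed sign under another fit or scaling and up to 11 with a library left out, none of them called. The median of membrane repair genes was 0.08 without untreated replicate 1.

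No pairing of the samples by replicate number was seen. After removal of group means, same-numbered libraries correlated at 0.0825, 0.101, 0.109 and 0.0468. Unlike-numbered libraries of the 2 groups correlated at 0.141 and 0.102 within replicates 1 and 2, and at 0.0564 and 0.138 within replicates 3 and 4. With the replicate number as a block, 0 genes were called and 637 had an unadjusted p under 0.05 (smallest adjusted p 0.559). For most mRNAs below 10 CPM the interval reached past a 2-fold change.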
